A study of Mus musculus with 12 samples.

Results

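The matrix protease genes of the fetal mouse ovary were taken as every protein-coding gene whose symbol was Adamts, Adamtsl, Mmp or Timp followed by its number. The rule gave 50 of the 54532 genes counted, of which 19 were ADAMTS, 5 ADAMTSL, 22 MMP and 4 TIMP genes. Ovaries came from mouse embryos at E15.5 (embryonic day) that carried the Tg(Pou5f1-EGFP)2Mnn transgene, in which sequence of Pou5f1 (OCT4) drives green fluorescent protein (GFP) in germ cells. Dams were injected intraperitoneally each day from E12.5 to E15.5 with saline or with dexamethasone (dex, a synthetic glucocorticoid), the dex dose being 10 µg for each gram the dam weighed. After trypsin digestion, germ cells were sorted as the GFP-positive and somatic cells as the GFP-negative fraction, which gave 4 groups of 3 libraries: germ cells after saline, germ cells after dex, somatic cells after saline and somatic cells after dex. The mesonephros was dissected away, ovaries of several litters were pooled for each library, and the GFP-negative fraction is a mixture of all ovarian cells other than germ cells.

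Matrix metalloproteinases (MMPs) are zinc endopeptidases that cut collagens and other matrix proteins, and are either secreted or anchored in the cell membrane. ADAMTS enzymes are secreted relatives with thrombospondin repeats that cut proteoglycans such as versican, trim the ends of procollagens or act on microfibrils, and the ADAMTS-like (ADAMTSL) proteins keep the repeats but lack the protease domain. Tissue inhibitors of metalloproteinases (TIMPs) block the active site of MMPs, and TIMP3 also that of several ADAMTS enzymes. In the adult ovary these families are known for remodelling the follicle wall at ovulation, where Adamts1 is induced under control of the progesterone receptor.

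Libraries held 14658503 to 18245507 counts, so a floor of 3 counts stood at 0.169 to 0.196 CPM (counts scaled to library size, with TMM factors). The marker lists followed the sort: 8 germ cell markers summed to 5078–5641 CPM in saline germ cells and to 6.15–11.5 CPM in saline somatic cells. Somatic markers were low but present in germ cell libraries. Relative to the somatic group of the same treatment, the median stromal marker stood at 0.408–0.905% and the median pregranulosa marker at 3.56–17.7%, with the highest value in dex replicate 2. Known glucocorticoid targets checked the treatment in somatic cells, where Fkbp5, Zbtb16, Tsc22d3, Per1 and Klf9 all rose (5 of 5 called). In germ cells 2 of the 5 were called, both higher, Per1 (1.91, adjusted p = 0.000906) and Zbtb16 (2.96, adjusted p = 0.0249). In these bulk libraries, fewer cells of a type and less RNA per cell cannot be told apart.

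In saline ovaries the protease genes were mostly transcripts of the somatic fraction. Of the 50 members, 39 had a mean of at least 1 CPM in saline somatic cells and 30 in saline germ cells, and 13 and 0 respectively had at least 100 CPM. With edgeR's quasi-likelihood test and a Benjamini-Hochberg adjusted p of at most 0.05 over all genes ("called" from here on), 40 of the 42 members tested were called between saline germ and somatic cells, 36 of them lower and 4 higher in germ cells. Across all genes 86.1% of those tested were called, with 43.1% higher and 42.9% lower in germ cells. The median member had a log2 difference of -4.47, against 0.0047 over all genes. Low-count filtering left 8 members untested here, and 3 of them, Mmp12, Mmp1b and Mmp20, had no count in any of the 12 libraries.

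Compared per length, as the deposited FPKM, Mmp2 and its activation partners had the highest somatic levels. Mmp2 (gelatinase A) stood at 266 ± 9.21 FPKM in saline somatic cells (SD, n = 3), ahead of its inhibitor Timp2 at 103 ± 2.35. Mmp14, the membrane-type enzyme that activates pro-MMP2 together with TIMP2, followed at 96.0 ± 6.92 FPKM, and Adamts1, a versican-cutting protease, at 90.3 ± 7.02. The SDs of Timp2 and Mmp14 overlapped, but Timp2 was above Mmp14 in each library (100.6, 103.0 and 105.3 against 95.06, 89.54 and 103.3 FPKM). Those of Mmp14 and Adamts1 also overlapped, and the order of these genes changed between libraries. Mmp2 stood clear of all of them. Next were Mmp11 (stromelysin 3) at 50.6 FPKM, Adamts10 at 35.8, Adamts19 at 25.7 and Timp3 at 23.8. Summed over each family, saline somatic cells had 459 ± 21.0 FPKM of MMP, 264 ± 15.1 of ADAMTS, 143 ± 3.77 of TIMP and 15.3 ± 0.889 of ADAMTSL transcripts.

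**Figure D1:**
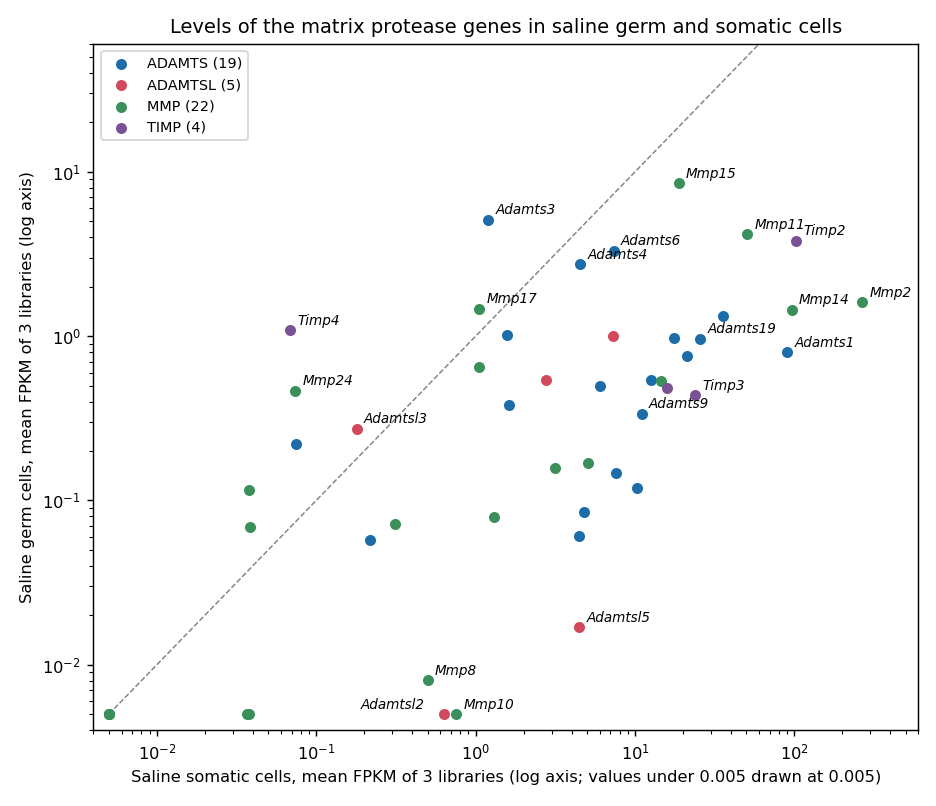
Mean FPKM of each of the 50 members in saline somatic cells (x axis) and saline germ cells (y axis), both on log axes, with 1 point for each gene coloured by family and the dashed line marking equal levels. Most points lie below the line, Mmp2 is farthest to the right at 266 FPKM, and Adamts3, Timp4 and Mmp24 lie clearly above the line.

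The germ cell levels had another order. Mmp15, a membrane-type MMP, was first in saline germ cells at 8.52 ± 0.775 FPKM, followed by Adamts3, a procollagen N-proteinase, at 5.11 ± 0.464, then Mmp11 at 4.18 and Timp2 at 3.81. Adamts6, linked to microfibrils, had 3.31 FPKM and Adamts4, an aggrecanase, 2.75. For the most abundant somatic gene, Mmp2, the 3 saline germ libraries had 4, 6.91 and 5.34 CPM against 928, 892 and 950 CPM in somatic cells. That is 0.587% of the somatic mean, where the median stromal marker stood at 0.487–0.833% and the median pregranulosa marker at 4.72–12.4% in the same libraries. The part of somatic RNA in these counts was not tested. For Mmp15 the germ level was 44.0% of the somatic mean (germ 44.4, 42.9 and 50.4 CPM, somatic 91.3, 109 and 112), and for Adamts6 43.7% and Adamts4 58.6%. The median share in any somatic marker list was lower, for example 3.486–6.754% for macrophage and 1.56–4.496% for endothelial markers in these libraries. Single markers lay far from their list's median. The macrophage marker Mrc1 stood at 31.7 CPM in saline germ and 72.4 CPM in saline somatic cells. The endothelial marker Tek stood at 27.7 and 12.4 CPM. All 8 macrophage markers and 7 of the 8 endothelial markers were called lower in germ cells. Tek was the exception and was called higher (1.16, adjusted p = 1.32e-06). The source of the Mmp15, Adamts6 and Adamts4 counts in germ cells was not tested.

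Of the 4 members higher in germ cells, Adamts3 had the highest level. Saline germ libraries had 30.3, 25.9 and 26.9 CPM of Adamts3 and saline somatic libraries 6.71, 7.49 and 5.94, a log2 difference of 2.04 (SE 0.142, adjusted p = 2.96e-09). The groups did not overlap, and the other procollagen N-proteinases, Adamts2 and Adamts14, were called lower in germ cells (-4.86 and -5.73). Timp4, the inhibitor with the most restricted adult expression, stood at 5.87, 7.26 and 6.04 CPM in germ and 0.376, 0.452 and 0.424 CPM in somatic libraries (3.91, SE 0.309, adjusted p = 1.41e-08). The other 3 inhibitors went the opposite way, with Timp1 at -5.07, Timp2 at -4.80 and Timp3 at -5.80, each called. Mmp24, a membrane-type enzyme known from neurons, had 2.39, 2.07 and 2.09 CPM in germ and 0.314, 0.387 and 0.364 CPM in somatic cells (2.59, SE 0.402, adjusted p = 2.56e-05). Its exons share 13.6% of their bases with other genes and the strand setting of the counting is not given in the sources used here, so its level is uncertain. Adamts13, which cuts von Willebrand factor, was barely detected (1.23, 0.945 and 1.10 CPM in germ against 0.815, 0.258 and 0.0606 CPM in somatic cells; 1.51, adjusted p = 0.0273), and the call was lost in 5 of 11 alternatives, with an adjusted p up to 0.126 without saline somatic replicate 3.

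Among well-counted members Mmp2 and Adamts1 were far lower in germ cells (-7.41, SE 0.138, and -6.86, SE 0.134). Adamtsl5, Adamtsl2 and Mmp10 had so few germ counts that the size of their difference is uncertain. Adamtsl5 had 22.3, 19.8 and 23.2 CPM in saline somatic cells and 4 counts in all over the saline germ libraries (-7.95, SE 0.292, adjusted p = 1.72e-12). Adamtsl2 had 72, 87 and 90 counts in the saline somatic libraries and 1 in all over the germ libraries, a ratio of 258 after scaling (95% exact interval 45.9 to 10200, counting error only). Mmp10 (stromelysin 2) had 20, 24 and 20 counts in somatic and none in germ cells, which makes it at least 7.37-fold higher in somatic cells at a floor of 3 counts per library. Mmp17 (0.43, adjusted p = 0.0539) and Adamtsl3 (0.55, adjusted p = 0.216) were the tested members not called, and Mmp17 was called higher in germ cells with RLE size factors, with the replicate block and without saline somatic replicate 2 (adjusted p = 0.0362, 0.0459 and 0.0325). Mmp19 (-0.74, adjusted p = 0.0469) lost its call in 7 of 11 alternatives and Adamts20 (-0.66, adjusted p = 0.00911) in 1.

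In somatic cells dex changed 13 of the 39 members tested (33.3%), with 10 higher and 3 lower, where 8.18% of all 16556 genes tested were called, 4.81% higher and 3.36% lower. The increases were in ADAMTSL (3 of 5 tested) and ADAMTS genes (6 of 18) with 1 MMP gene of 13, Mmp8, and the decreases were Adamts7, Mmp11 and Mmp15. No TIMP was called, 3 being tested. The median member moved by 0.16 on the log2 scale against 0.000142 over all genes. For all 13 called genes the saline and dex libraries did not overlap. These genes were picked by a test on the same libraries, so the separation is no further support. The uncalled Adamts2, Mmp10, Mmp23 and Mmp28 did not overlap either, and the share of all genes without overlap was not counted. Without saline somatic replicate 2 the count of members called was 8.

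**Figure D2:**
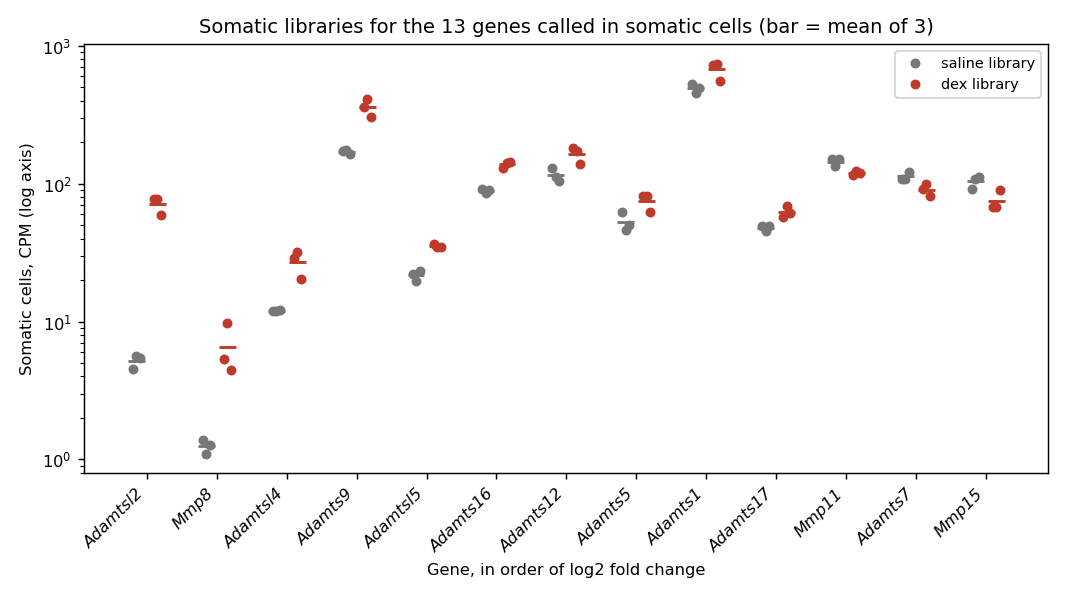
CPM on a log axis of the 13 genes called in somatic cells, in order of log2 fold change, with 1 point for each library (grey, saline; red, dex; 3 each) and a bar at the group mean. Points of the groups are separate for every gene, with the widest gap for Adamtsl2 (4.52–5.62 CPM after saline, 59.1–78.0 after dex).

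Adamtsl2 carried the largest change. It encodes a secreted glycoprotein without protease activity that binds fibrillin microfibrils and latent TGF-β binding protein and is mutated in geleophysic dysplasia. Saline somatic libraries had 4.52, 5.62 and 5.46 CPM and dex libraries 77.3, 78.0 and 59.1 CPM, a 13.8-fold difference of means (log2 fold change 3.79, SE 0.137, adjusted p = 4.33e-09). In FPKM the gene went from 0.631 to 8.73. The gene lies at chr2:27079379-27108981 on the plus strand of GRCm38 and shares no exon bases with other annotated genes. The 250 bases before its RefSeq start site (GRCm38.p6, chr2:27079129-27079378, + strand), shown because it is the most responsive member, hold a TATA box, TATAAA in capitals, that begins 30 bases before the start:

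Adamtsl2: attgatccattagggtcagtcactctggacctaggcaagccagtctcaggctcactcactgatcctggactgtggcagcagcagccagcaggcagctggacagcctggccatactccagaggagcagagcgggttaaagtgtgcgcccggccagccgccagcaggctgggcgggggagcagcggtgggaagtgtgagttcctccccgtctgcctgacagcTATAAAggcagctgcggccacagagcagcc

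Neither the half-site of the glucocorticoid response element, AGAACA, nor its full palindrome was found in that window by letters. Promoters of 300 bases (250 before and 50 after the start) were available from RefSeq for 35 of the 50 members, including 8 of the 10 called higher. The half-site AGAACA, searched on both strands, was in 0 of those 8 and in 5 of the 35, against 19.0% of all 32851 promoters. The full palindrome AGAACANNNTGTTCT was in 0 of 35. Only 3 of all 32851 promoters (0.00913%) held it, so its absence from 35 carries no information. TATAAA on either strand was in 3 of the 8 (Adamts1, Adamtsl2 and Mmp8) and in 11 of the 35, against 13.6% of all promoters. These are matches of letters in a short window, and distal elements were not searched.

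The other ADAMTSL genes fell into called and unmoved members. Adamtsl4, which binds fibrillin-1 and is needed for the zonule fibres of the lens, went from 11.9, 11.9 and 12.1 CPM to 28.9, 31.8 and 20.4 CPM (1.19, SE 0.154, adjusted p = 0.000287). Adamtsl5 went from 22.3, 19.8 and 23.2 to 36.8, 34.9 and 34.7 CPM (0.71, SE 0.0979, adjusted p = 0.000431). All dex libraries exceeded all saline libraries for both. Adamtsl1 (-0.08, adjusted p = 0.636) and Adamtsl3 (0.16, adjusted p = 0.865) were not called. Summed over the 5 genes, somatic ADAMTSL stood at 15.3 ± 0.889 FPKM after saline and 29.4 ± 3.47 after dex.

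Among the proteases that cut versican and related proteoglycans, 3 of 7 were called, all higher. Adamts9 went from 173, 176 and 164 CPM to 360, 414 and 303 CPM, a 2.10-fold difference of means (1.08, SE 0.0950, adjusted p = 9.34e-06). It encodes a secreted protease with a role in versican turnover in embryos, and 12% of its exon bases overlap other annotated genes. Adamts1, which lies at chr16:85793827-85803113, went from 530, 458 and 490 CPM to 730, 744 and 553 CPM (0.46, SE 0.0997, adjusted p = 0.0112). Its neighbour Adamts5 (aggrecanase 2), 53059 bases away on the same strand, went from 62.2, 46.4 and 50.5 to 81.8, 81.0 and 62.4 CPM (0.51, SE 0.116, adjusted p = 0.0155). In both, dex replicate 3 lay nearest to the saline libraries, and for Adamts5 it exceeded the highest saline library by less than 1 CPM. Adamts4, Adamts8, Adamts15 and Adamts20 were not called (adjusted p = 0.287, 0.527, 0.409 and 0.314), with Adamts4 called without dex replicate 3 (0.0133). The call of Adamts1 was lost without dex replicate 2 (adjusted p = 0.0696), saline replicate 2 (0.0677) or saline replicate 3 (0.0595), and that of Adamts5 without dex replicate 1 (0.0584) or 2 (0.0833) or saline replicate 2 (0.0868) or 3 (0.0907).

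Adamts16 and Adamts17 were the called members among the 4 less studied ADAMTS genes. Adamts16, which is expressed in developing gonads, went from 91.8, 85.1 and 90.1 CPM to 131, 141 and 145 CPM (0.65, SE 0.0648, adjusted p = 2.86e-05). Adamts17, mutated in a Weill-Marchesani-like syndrome, went from 49.5, 45.3 and 49.4 to 57.7, 68.7 and 61.6 CPM (0.39, SE 0.0822, adjusted p = 0.00973). The call of Adamts17 was lost without dex replicate 2 (0.0557) or saline replicate 2 (0.0616). Adamts19 (-0.06, adjusted p = 0.773) and Adamts18 (0.29, adjusted p = 0.733) were not called. The pair that cuts cartilage oligomeric matrix protein split in direction. Adamts12 rose from 129, 113 and 105 to 181, 171 and 139 CPM (0.51, SE 0.0970, adjusted p = 0.00509). Adamts7 fell from 109, 109 and 122 to 92.0, 98.7 and 81.5 CPM (-0.31, SE 0.0786, adjusted p = 0.0269).

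Adamts10 (-0.05, adjusted p = 0.748) and Adamts6 (0.36, adjusted p = 0.0903), both linked to fibrillin microfibrils, were not called, but Adamts6 was called higher with the replicate block (0.00865), with DESeq2 (0.0493), without low-count filtering (0.000473) and without dex replicate 3 (0.00126). Nor were the procollagen N-proteinases: Adamts2 stood at 201, 199 and 215 CPM after saline and 253, 262 and 216 CPM after dex (0.26, adjusted p = 0.0564), and Adamts3 and Adamts14 had an adjusted p of 0.682 and 0.244. Adamts2 was called higher with DESeq2 (0.0201), without low-count filtering (0.0101) and without dex replicate 3 (0.00247), and Adamts14 without low-count filtering (0.0495) and without dex replicate 3 (0.000925). Summed ADAMTS transcripts were at 264 ± 15.1 FPKM after saline and 330 ± 38.8 after dex in somatic cells, and Adamts1 was at 124 ± 20.1 FPKM after dex.

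The summed MMP level was 459 ± 21.0 FPKM after saline and 466 ± 16.4 after dex. Mmp2 was at 928, 892 and 950 CPM after saline and 962, 954 and 943 CPM after dex (0.05, adjusted p = 0.673), and its activator Mmp14 had 0.08 (adjusted p = 0.673). Mmp15 fell from 91.3, 109 and 112 to 68.0, 68.1 and 89.4 CPM (-0.47, SE 0.107, adjusted p = 0.0164), and Mmp11 from 151, 133 and 150 to 116, 123 and 121 CPM (-0.27, SE 0.0656, adjusted p = 0.0238). Both falls are small, dex replicate 3 of Mmp15 lay within 2 CPM of the lowest saline library, and Mmp11 shares 5.58% of its exon bases with Chchd10. Without 1 library the adjusted p of Mmp15 ran to 0.0865 (saline replicate 3, and also above 0.05 without dex replicate 1 or 2 or saline replicate 2), that of Mmp11 to 0.107 (saline replicate 1, and also without saline replicate 3 or dex replicate 1) and that of Adamts7 to 0.132 (saline replicate 3, and also without saline replicate 1 or 2 or dex replicate 1). Mmp19 (0.99, adjusted p = 0.0609) stood at 2.95, 2.65 and 5.82 CPM after saline and 5.61, 9.73 and 7.34 CPM after dex, with overlapping groups. Mmp19 shares 28.3% of its exon bases with Gm47093 and Tmem198b, so its level is uncertain. It was called higher in 6 of 11 alternatives: without low-count filtering (adjusted p = 0.000711), with DESeq2 (0.0264), with the replicate block (0.029) and without dex replicate 1 (0.036), dex replicate 3 (0.0427) or saline replicate 3 (0.0156).

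Mmp8, neutrophil collagenase, rose from 1.38, 1.10 and 1.27 CPM to 5.37, 9.79 and 4.46 CPM (2.39, SE 0.334, adjusted p = 0.000489). These are 17 to 22 counts a library after saline and 76 to 174 after dex. The 8 listed neutrophil markers summed to 36.3, 37.6 and 16.7 CPM after saline and 82.8, 90.6 and 41.1 CPM after dex. Their sum in dex replicate 3 thus lay near the highest saline library, unlike Mmp8. Of the 7 tested, 3 were called higher, against 4.81% of all genes. These were S100a8, S100a9 and Ngp (1.31, 1.18 and 1.47), and the median of the 7 was 1.18. Mpo and Elane, which mark neutrophil precursors, were not called and were at 1.52 and 0.0375 CPM on average after dex. Their saline levels are not given here, so these values do not show a change. Macrophage markers moved the other way, from 181–243 CPM summed after saline to 51.3–131 CPM after dex (5 of 8 called lower, against 3.36% of all genes). Mmp9, the gelatinase that neutrophils store, was not called (4.95, 3.55 and 5.76 CPM after saline, 4.12, 3.995 and 3.17 CPM after dex; -0.33, adjusted p = 0.503). The part of the leukocytes in the Mmp8 result was not tested.

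**Figure D3:**
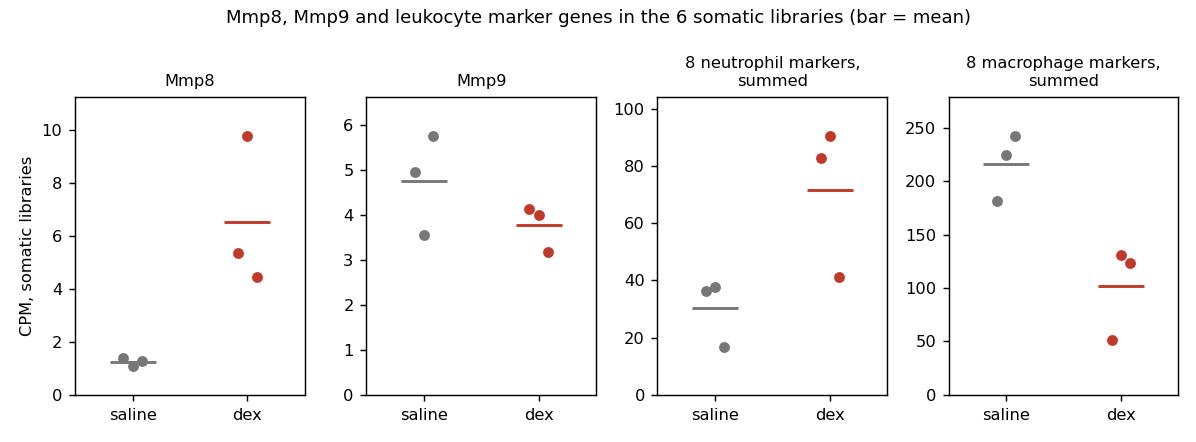
CPM of Mmp8, Mmp9, the summed 8 neutrophil markers and the summed 8 macrophage markers in the 3 saline and 3 dex somatic libraries, each on its own linear axis from 0 with a bar at the mean. Mmp8 (1.10–1.38 to 4.46–9.79 CPM) and the neutrophil sum are higher after dex, the macrophage sum is lower, and Mmp9 overlaps.

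Mmp8 lies in a cluster of 9 MMP genes on chromosome 9 (chr9:7272514-7699585, GRCm38) that was otherwise close to silent. The highest value of the other 8 genes in any library was 1.549 CPM, for Mmp10. Mmp10 stood at 1.25, 1.55 and 1.21 CPM after saline and 0.477, 0.732 and 1.12 CPM after dex in somatic cells (-0.77, SE 0.448, adjusted p = 0.368). Mmp3 (stromelysin 1) had no count in saline somatic cells and 4, 1 and 5 counts in dex somatic cells, too few to test. The cluster holds all 6 of the members with an AP-1 site in a RefSeq promoter, TGACTCA or TGAGTCA when read from the other strand, the element through which these inducible genes are classically regulated and which 5.2% of all promoters hold. It was in 0 of the 8 promoters of genes called higher. For Mmp12, which has more than 1 RefSeq start, the site was not in the window at the annotated gene start but in that of a start farther downstream. The 60 bases around each site are shown, with the site in capitals, because 6 of these near-silent genes share it (RefSeq promoters, GRCm38.p6, 5′ to 3′ on the gene's strand):

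Mmp10 (chr9:7502253-7502312, + strand): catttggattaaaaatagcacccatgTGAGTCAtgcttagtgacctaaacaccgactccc
Mmp12 (chr9:7347304-7347363, + strand): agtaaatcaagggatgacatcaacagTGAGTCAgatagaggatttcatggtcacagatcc
Mmp13 (chr9:7272453-7272512, + strand): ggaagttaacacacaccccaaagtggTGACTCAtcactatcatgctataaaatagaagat
Mmp1b (chr9:7388086-7388145, - strand): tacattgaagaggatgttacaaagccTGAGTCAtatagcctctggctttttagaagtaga
Mmp3 (chr9:7445750-7445809, + strand): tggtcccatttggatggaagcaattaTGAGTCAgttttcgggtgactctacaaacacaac
Mmp7 (chr9:7692001-7692060, + strand): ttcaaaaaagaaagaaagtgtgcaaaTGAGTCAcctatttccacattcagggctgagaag

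Of the genes of the AP-1 factors themselves, 1 of 7 tested was called in somatic cells, against 8.18% of all genes. It was Fos (0.55, adjusted p = 0.00511), and the others were Fosb, Fosl1, Fosl2, Jun, Junb and Jund at -0.19 to 0.19.

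No inhibitor gene was called in somatic cells, where 3 of 4 were tested. Timp3, which inhibits ADAMTS enzymes as well as MMPs, stood at 211, 200 and 189 CPM after saline and 206, 204 and 212 CPM after dex in somatic cells (0.06, adjusted p = 0.654), with 21.3% of its exon bases shared with Syn3. Timp2 stood at 402, 415 and 422 and at 413, 428 and 387 CPM (-0.01, adjusted p = 0.968), and Timp1 at 12.7, 13.2 and 17.4 and at 14.0, 16.04 and 13.4 CPM (0.01, adjusted p = 0.981). Timp4 was too low in somatic cells to test. The groups overlapped for all 4, and the summed TIMP level was 143 ± 3.77 and 143 ± 6.34 FPKM.

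Genes that make, activate or inhibit these proteins, or are cut by them, were counted in 5 lists. In somatic cells 8.18% of all genes tested were called, 4.81% higher and 3.36% lower. Lists of this size with 0, 1 or 2 genes called are near that share. Of the proteoglycan and hyaluronan genes, which include the versican gene Vcan (0.16, adjusted p = 0.295), 0 of 11 tested were called. Of the activating proteases and their inhibitors, such as Furin and Plat, 0 of 10 were called. The median log2 fold changes of these lists were -0.07 and 0.02. Of a mixed list of other inhibitors, enhancers and clearance receptors, 3 of 9 were called higher and 1 lower. Spock2, a testican, rose by 2.05 (adjusted p = 1e-08), Pcolce, the procollagen C-proteinase enhancer, by 0.44 (0.00201) and Lrp1, which clears secreted proteases, by 0.27 (0.0196), while Spock3 fell by 0.65 (0.0168). Of 15 microfibril and elastic fibre genes, the partners of the ADAMTSL proteins, 2 were called, both higher. Lox, which cross-links collagen and elastin, rose by 1.62 (adjusted p = 7.81e-07) and Loxl2 by 0.29 (0.0405). The fibrillin genes Fbn1 (0.10, adjusted p = 0.468) and Fbn2 (0.12, 0.311) were not called. Of 9 other metalloproteases 1 was called, Adam19 (-0.35, adjusted p = 0.0193).

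Markers of somatic cell types were compared between the same somatic libraries, where 8.18% of all genes were called. Stromal markers summed to 20790–23160 CPM after saline and 19400–25620 CPM after dex, with 1 of 8 called, Pdgfra, higher. Perivascular markers summed to 914–939 and 911–1120 CPM, and Cspg4, Kcnj8 and Abcc9 were called higher. Pregranulosa markers summed to 831, 853 and 875 CPM after saline and 642, 681 and 914 CPM after dex, with 1 of 8 called, Wnt4, lower. Endothelial markers summed to 334–399 and 298–337 CPM, with Cdh5 and Tie1 called lower and Emcn higher. Erythroid markers summed to 12440, 10160 and 7399 CPM after saline and 8123, 16520 and 3287 CPM after dex. Surface epithelium markers summed to 970–1073 and 829–1040 CPM and mesonephros markers to 163–187 and 147–192 CPM. None of the markers in these 3 lists was called. Germ cell markers in the somatic libraries summed to 6.15–11.5 CPM after saline and 17.3–27.2 CPM after dex, with Dazl called higher. The lowest stromal, perivascular, endothelial and erythroid sums after dex were all in dex replicate 3, and so were the highest pregranulosa, surface epithelium and mesonephros sums. Dex replicate 3 was also the lowest dex library for all called members but Adamts16, Adamts17, Mmp11 and Mmp15. The part of cell type shares in these results was not tested.

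In germ cells no member was called after dex. Of 36 tested, 0 passed in edgeR's test. An unadjusted p under 0.05 was found for 5, but all genes were not counted at that cut-off, so the 5 have no background. DESeq2 called 0, and the test without low-count filtering called 1, Adamts9 (adjusted p = 0.0484). Over all genes 0.208% were called, 0.089% higher and 0.119% lower. The median member moved by 0.14 against 0.0142 over all genes, and 28 of the 36 were above 0. Adamts9 stood at 3.48, 5.67 and 6.04 CPM after saline and 4.51, 13.3 and 7.76 CPM after dex (0.76, SE 0.333, adjusted p = 0.400), and Adamts1 at 3.23, 5.37 and 4.12 and at 4.58, 9.98 and 6.39 CPM (0.73, SE 0.285, adjusted p = 0.355). The groups overlapped in both, and the highest value of each was in dex replicate 2, the germ cell library with the highest median pregranulosa and stromal marker shares, 17.7% and 0.905%. The part of somatic RNA in these values was not tested. Mmp25, a GPI-anchored enzyme of leukocytes, had the largest tested change, 0.323, 0.472 and 0.348 CPM against 0.850, 1.17 and 1.13 CPM (1.46, SE 0.456, adjusted p = 0.274).

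None of the members higher in germ cells was called after dex. Adamts3 had 30.3, 25.9 and 26.9 CPM after saline and 26.8, 28.0 and 23.2 CPM after dex (-0.07, SE 0.117, adjusted p = 0.855), Timp4 had 0.09 (SE 0.199) and Mmp24 -0.0047 (SE 0.271). Mmp15, the most abundant member in germ cells, had 0.11 (SE 0.0914). Adamtsl2, too low in germ cells to pass filtering, had 0, 1 and 0 counts after saline and 6, 10 and 4 after dex, a ratio of 20.9 after scaling (95% exact interval 3.35 to 867, counting error only). The dex germ values were 0.549%, 0.906% and 0.334% of the dex somatic mean. In those libraries the median marker stood at 0.408–0.905% for stroma, 0.753–1.24% for surface epithelium, 1.28–3.88% for endothelium and 3.56–17.7% for pregranulosa cells. The part of somatic RNA in these counts was not tested. Without low-count filtering the adjusted p of Adamtsl2 was 0.133.

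**Figure D4:**
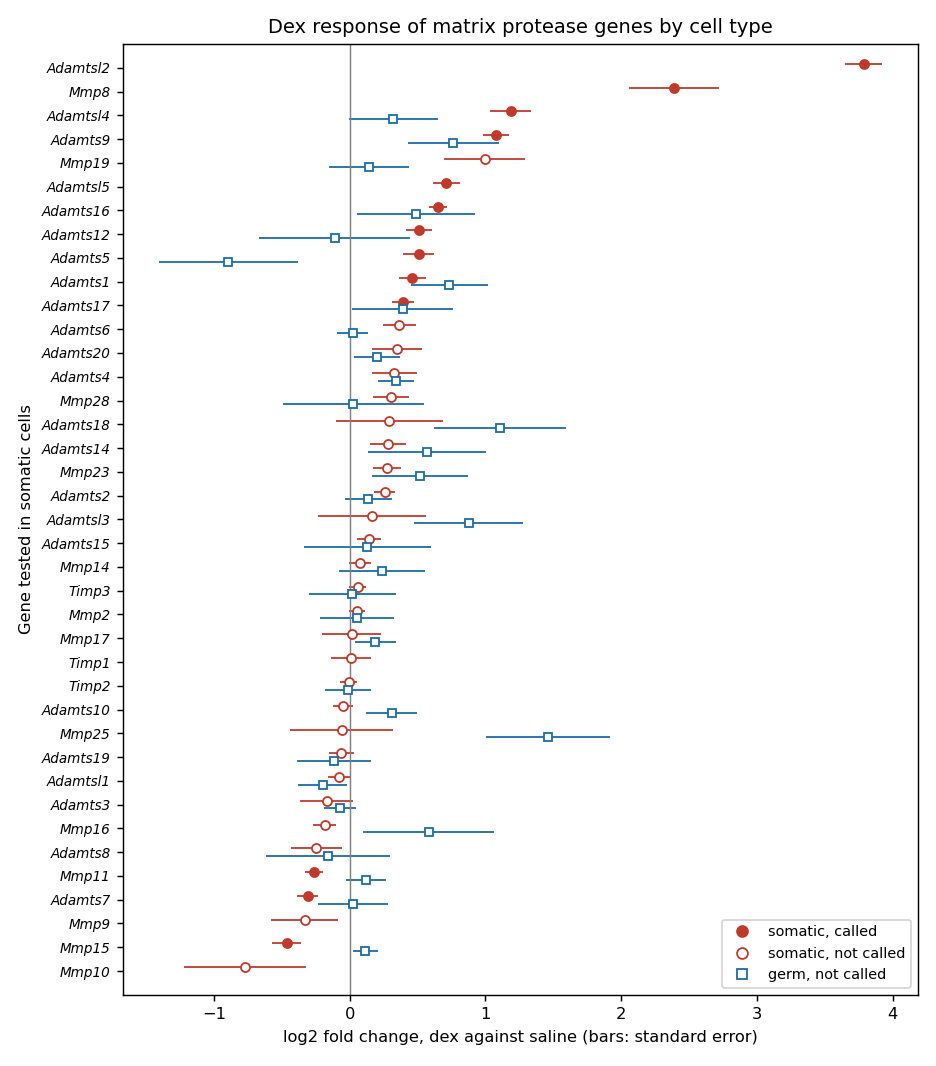
Log2 fold change of dex against saline with its standard error for the 39 members tested in somatic cells (red circles) and, where tested, in germ cells (blue squares), ordered by the somatic value, with filled symbols for called genes. All 13 filled symbols are somatic, and no germ cell symbol is filled.

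The germ cell effect of dex minus its somatic effect tested for unequal responses. An unadjusted p under 0.05 was found for 6 members, again without a count of all genes at that cut-off. None of 42 members was called by edgeR, where 1.62% of all genes were, 0.49% higher and 1.13% lower. Calls in somatic cells alone therefore do not show that germ cells responded otherwise. The members nearest to the threshold were Mmp15 (0.57, SE 0.159, adjusted p = 0.0939), which fell in somatic cells and stood at 0.11 in germ cells, and Adamts5 (-1.42, SE 0.451, adjusted p = 0.140), followed by Mmp11 (0.38, SE 0.127, adjusted p = 0.166). DESeq2 called Adamts5 (adjusted p = 0.0296), and the test without low-count filtering called Adamts5 (0.0112) and Mmp15 (0.00233). The Adamts5 difference rests on few germ counts, 9, 24 and 13 after saline and 6, 10 and 7 after dex. Mmp15 was also called without dex germ replicate 1 (0.0498) or dex somatic replicate 3 (0.0141). For Adamtsl2 the difference was 0.17 with a standard error of 0.385, resting on the few germ counts given above. Of the linked genes, Spock2 was called (-1.79, adjusted p = 4.59e-05).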

How the data were processed

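RNA from 12 libraries was counted. The authors aligned read pairs to mm10 with HISAT2 2.0.5 and deposited raw counts per gene from featureCounts 1.5.0-p3, with GRCm38 coordinates, together with FPKM computed from those counts. Strand and multi-mapping settings are not given in the sources used here, so genes that share exon bases are uncertain. Tables of the authors' own DESeq2 1.20.0 comparisons (fold changes and p-values) were not used.

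Counts were tested across all genes with edgeR 4.0.16 (R 4.3.3) using TMM factors, filterByExpr and the quasi-likelihood test, each comparison with its own groups only (the difference with all 4), at a Benjamini-Hochberg adjusted p of at most 0.05. SE denotes the standard error of a log2 fold change and SD that between libraries. FPKM was used between genes, CPM within a gene. Exons were compared with GENCODE M21 and promoters taken from RefSeq (GRCm38.p6).

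Named in full were members called in a dex comparison or in the difference, the 4 TIMP genes, the 3 highest of each other family by FPKM in each saline group, and the 3 largest differences each way between saline germ and somatic cells (mean of at least 1 CPM in the higher group). Genes of the linked lists were named where called, at most 4 a list. Adamts20, Mmp17, Mmp19, Mmp25, Mmp3, Mmp9 and other uncalled members were named after their values were seen. The members and lists were chosen with earlier results of these data known. The labels call the replicates biological; replicate libraries were not duplicates (chi-square per degree of freedom 5.48 to 21.9). Alternatives were RLE size factors, no low-count filter, DESeq2 1.42.0, a replicate block, all 4 groups in one fit and leaving out each library. Intervals and floors cover counting error only.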

Additional observations from a re-analysis of the deposited data

How the results depend on the processing

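Adamtsl2, Adamtsl4, Adamtsl5, Adamts9 and Mmp8 kept their somatic call under every alternative run. Of the other 8, the fit of all 4 groups together called Adamts5 and Mmp15 and lost Adamts1, Adamts7, Adamts12, Adamts16, Adamts17 and Mmp11, leaving 7 members (6 higher, 1 lower) and 803 genes; it was the alternative that lost Adamts12 (adjusted p = 0.0814) and Adamts16 (0.0812). DESeq2 called 16 members (13 higher) and 1477 genes, and the test without low-count filtering 17 members (14 higher) and 1946 genes. Leaving out a library gave 8 to 19 members (7 to 16 higher, 0 to 3 lower) and 754 to 1881 genes. The fewest members were called without saline somatic replicate 2 and the most without dex somatic replicate 3, and the gene count was 856 without dex replicate 2 and 888, 756 and 754 without saline replicates 1, 2 and 3. In germ cells 35 genes were called, 420 without low-count filtering (1 member, 1 higher), 158 with DESeq2, 64 in the fit of all 4 groups and 17 to 81 with a library left out (81 without dex replicate 1, 17 without dex replicate 2 or saline replicate 3). For the difference between cell types 314 genes were called, 727 without low-count filtering (2 members, 1 higher and 1 lower), 620 with DESeq2 (1 member, lower) and 143 to 384 with a library left out (0 to 1 member), the fewest without saline somatic replicate 3 and the most without dex germ replicate 1. The cause of these changes was not tested. No called member changed sign. Uncalled values near 0 did, among them Adamtsl2 in the difference (-0.29 to 2.03).

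Replicate numbers are shared between groups. Deviations of same-numbered libraries correlated at 0.285, 0.0373 and 0.109 (germ, dex with saline) and 0.175, -0.0471 and 0.0521 (somatic), so the numbers were not taken to pair dex with saline. With the replicate block 49 genes were called in germ cells, 1520 in somatic cells (15 members), 222 in the difference and 15283 between saline cell types (40 members). Between saline germ and somatic libraries the correlations were 0.189, 0.0918 and 0.167, and between dex germ and somatic libraries 0.199, 0.105 and 0.195, a hint from the data and not from the design; no member was called in the difference with the block. Depth limits the lowest members: 5 of 50 had at most 3 counts in every library.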
